A study of Mus musculus with 8 samples.

Results

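The 3 mouse Popeye domain genes, Bves (also called Popdc1), Popdc2 and Popdc3, were followed among 19938 genes measured on 8 Affymetrix arrays of aortic smooth muscle cells. They were taken by gene symbol from the platform annotation, and each has 1 probe set on the array. The family was selected on the difference between treated and control arrays, which was large for Bves and Popdc2, so that difference is described here without a test. The cells were primary C57Bl6 cells at passage 3 to 4, grown in DMEM and 10% FCS (fetal calf serum). Of the samples, 4 are from cells given 100 nM jasplakinolide for 24 h and 4 from control cells without it. Groups follow the sample titles, since the treatment field carries the same text for all 8 samples. Jasplakinolide is a sponge-derived compound that enters cells, binds actin filaments and stabilises them. The comparison addresses how cells with stabilised actin filaments differ in their transcripts. Values are log2 expression levels, so a difference of 1 is a doubling. Each probe set has its own signal range, so levels are compared between arrays and not between genes. Nothing in the labels ties the 4 replicates of a group to separate animals or dishes, so every error and p-value covers only the spread between these arrays, which may be technical.

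Popeye domain proteins sit in the membrane with a short outer end, 3 membrane-spanning segments and a cytoplasmic Popeye domain that binds cyclic AMP (cAMP). They form a class of cAMP effectors beside protein kinase A, the exchange factors of the EPAC type and cyclic nucleotide-gated channels. The family is best known from heart and skeletal muscle: mice without Bves or Popdc2 have stress-induced slowing of the heartbeat, and human variants of BVES and POPDC3 cause limb-girdle muscular dystrophy. In the reference gene table Popdc3 and Bves are direct neighbours on chromosome 10, with no other annotated gene between them, whereas Popdc2 lies on chromosome 16 between Cox17 and Pla1a.

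A promoter window was matched for 1 of the 3 genes, Popdc2. The 250 bases before its annotated start are shown because no window was matched for Bves or Popdc3. They lie at chr16:38361940-38362189 on the plus strand of GRCm38.p6 (RefSeq), and capitals mark a pair of overlapping motif matches.
Popdc2 promoter: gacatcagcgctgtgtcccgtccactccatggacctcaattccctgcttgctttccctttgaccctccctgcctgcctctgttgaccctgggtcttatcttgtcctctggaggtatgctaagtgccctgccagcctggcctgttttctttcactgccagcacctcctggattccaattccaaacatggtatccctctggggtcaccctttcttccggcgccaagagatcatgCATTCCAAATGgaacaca
The capitals hold the MCAT motif GGAATG, the letters TEAD factors are known to bind, read on the minus strand at window bases 233 to 238. They also hold an E-box CANNTG, the motif of basic helix-loop-helix factors, at bases 238 to 243, which shares 1 base with the MCAT match. A second E-box spans the start itself (bases 249 to 254) and runs past the end of the stretch shown. On either strand, MCAT letters occur in 14.7% and E-box letters in 72.3% of 32851 mouse promoter windows of 300 bases. Neither the CArG box, which serum response factor binds (1.63% of windows), nor TGACG, the core of the cAMP response element (20.8% of windows), occurs in the Popdc2 window. These matches are letters in a window and not measured binding sites.

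**Figure D1:**
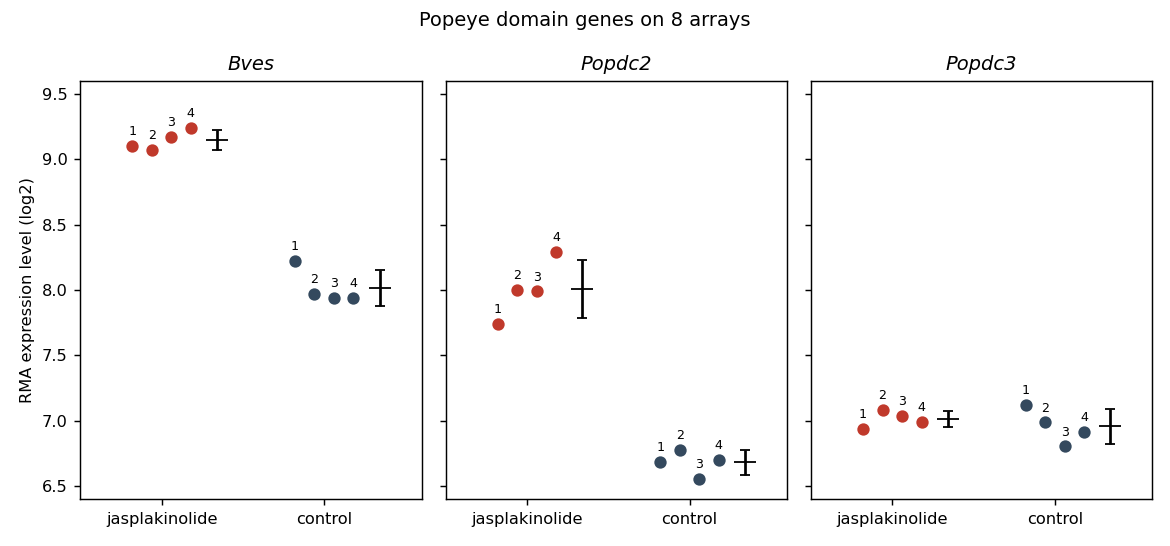
Log2 expression level (vertical axis) of each Popeye domain gene on the 4 jasplakinolide and the 4 control arrays; points are arrays with their replicate number, and bars beside them give the mean and SD (n = 4). Bves and Popdc2 lie higher on all 4 jasplakinolide arrays, whereas the Popdc3 groups overlap; levels of different genes come from different probe sets and are not compared.

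Bves encodes the founding member of the family, POPDC1. Its level was 9.10, 9.07, 9.17 and 9.24 log2 in jasplakinolide arrays 1 to 4, against 8.22, 7.97, 7.94 and 7.94 log2 in control arrays 1 to 4. All jasplakinolide arrays lay above all control arrays, and the lowest treated array exceeded the highest control by 0.85 log2. The mean was 9.15 ± 0.08 log2 with jasplakinolide and 8.02 ± 0.14 log2 in control (SD, n = 4 each), a difference of 1.13 ± 0.07 (limma SE) or 2.19-fold. Control 1 (8.22 log2) stood above the other control arrays (7.94 to 7.97 log2), as the plot of levels by array shows.

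Popdc2, the second family member of heart and muscle, read 7.74, 8.004, 7.99 and 8.29 log2 in jasplakinolide arrays 1 to 4, and 6.69, 6.78, 6.55 and 6.70 log2 in control arrays 1 to 4. Again the groups were apart, with 0.97 log2 between the lowest treated and the highest control array. Its means were 8.01 ± 0.22 log2 with jasplakinolide and 6.68 ± 0.09 log2 in control (SD, n = 4 each), which gives a difference of 1.33 ± 0.10 (limma SE) or 2.51-fold. The treated arrays of Popdc2 spread more widely than its controls, with jasplakinolide 4 highest and jasplakinolide 1 lowest.

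Popdc3, the third member and the genomic neighbour of Bves, read 6.94, 7.08, 7.03 and 6.99 log2 in jasplakinolide arrays 1 to 4, and 7.12, 6.99, 6.80 and 6.91 log2 in control arrays 1 to 4. The groups overlapped, and the highest of the 8 values belonged to control 1. The means were 7.01 ± 0.06 log2 with jasplakinolide and 6.96 ± 0.13 log2 in control (SD, n = 4 each). The difference of 0.05 ± 0.07 (limma SE), or 1.04-fold, was smaller than its SE and smaller than the SD of its control arrays.

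In 2 of the 3 genes the jasplakinolide arrays thus lay wholly above the control arrays, as they did in 3.62% of all 19938 genes. The same 2 genes were among the 87 genes called higher by limma across all genes (Benjamini-Hochberg adjusted p under 0.05), which make up 0.436% of the genes tested. Because that contrast brought them into view, these counts are a description only. Across all genes, 154 (0.772%) were called in either direction, 87 higher and 67 (0.336%) lower, or 69 higher and 34 lower after median centring. The middle 90% of differences over all genes lay between -0.16 and 0.15 log2, with a median of 0.01. Within groups, the pooled SD was 0.11 for Bves, 0.17 for Popdc2 and 0.10 for Popdc3, against a median of 0.10 over all genes. By mean level over the 8 arrays all 3 genes were in the brighter 75% of genes, and of the 3 Bves alone was in the brighter 50%. Popdc3 on every array, and Popdc2 on the control arrays, read below the array medians (7.30 to 7.39 log2 over all probe sets). No detection call was made, so an unchanged Popdc3 cannot be told from a probe set without signal. The same limit holds for other genes of like level. In bulk cultures, a change in the number of cells that carry a transcript and a change in its amount per cell cannot be told apart.

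**Figure D2:**
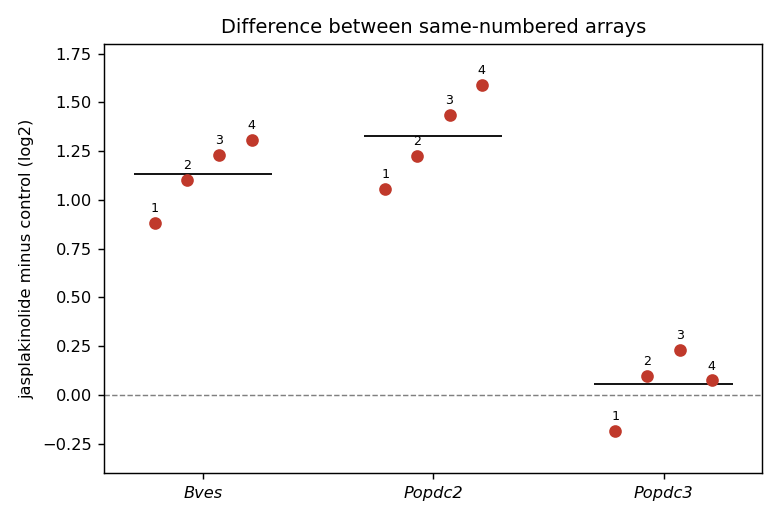
Jasplakinolide minus control difference (log2, vertical axis) between arrays of the same replicate number, for each Popeye domain gene; points are the 4 replicate numbers and lines the mean difference. The 4 differences run from 0.88 to 1.31 for Bves and from 1.06 to 1.59 for Popdc2, while those of Popdc3 lie on both sides of 0.

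Replicate numbers are shared by the groups, and deviations of same-numbered arrays correlated at 0.24 to 0.56 across genes. Jasplakinolide 4, however, correlated more with control 2 (0.52) than with control 4 (0.44). The numbers were taken as pairs on this uneven ground, and each member was also read within numbers. For Bves the same-numbered difference was 0.88, 1.10, 1.23 and 1.31 log2 for numbers 1 to 4. For Popdc2 it was 1.06, 1.23, 1.44 and 1.59 log2. In both genes number 1 gave the smallest and number 4 the largest difference, from 1.84-fold to 2.47-fold for Bves and from 2.08-fold to 3.01-fold for Popdc2. Popdc3 had differences of -0.19, 0.10, 0.23 and 0.07 log2, with number 1 again the lowest and number 3 the highest. Control 1, where Bves and Popdc3 both had their highest control value, belongs to number 1. Jasplakinolide 4 (19.4) and control 2 (12.1) lay at one end of the first principal component of all genes, with the other 6 arrays between -14.3 and 4.71. Without these 2 arrays the difference was 1.08 log2 for Bves, 1.27 for Popdc2 and 0.07 for Popdc3.

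**Figure D3:**
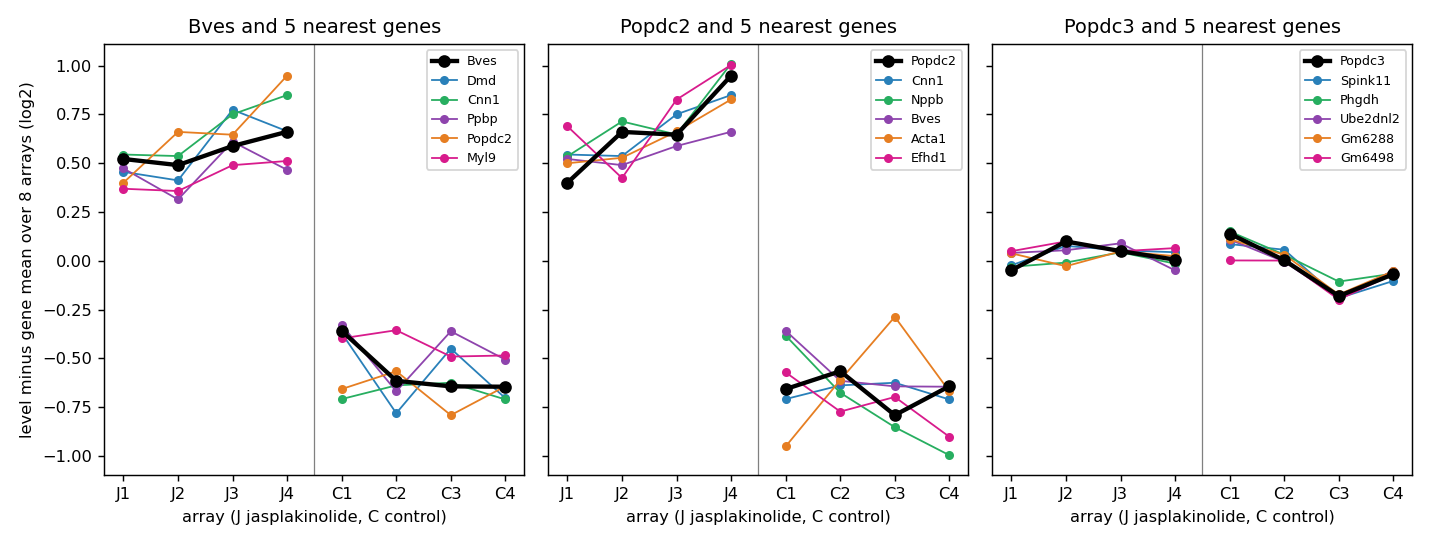
Level minus the gene's own mean over the 8 arrays (log2, vertical axis) on jasplakinolide arrays (J1 to J4) and control arrays (C1 to C4), for each Popeye domain gene (thick black line) and the 5 genes nearest to it. Profiles around Bves and Popdc2 step between the groups; those around Popdc3 stay within 0.198 log2 of 0.

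Genes with the pattern most like each member were taken as those with the smallest mean absolute distance over the 8 arrays between levels centred on each gene's own mean. The gene nearest to Bves was Dmd, which encodes dystrophin, at 0.10 log2. It was followed by Cnn1 (calponin, an actin-binding protein of smooth muscle, 0.11), the platelet chemokine gene Ppbp (0.12), Popdc2 itself (0.14) and Myl9, the regulatory light chain of smooth muscle myosin (0.14). Dmd read 8.84, 8.80, 9.16 and 9.05 log2 in jasplakinolide arrays 1 to 4, and 8.02, 7.61, 7.94 and 7.68 log2 in control arrays 1 to 4. Like Bves, Dmd was higher on every treated array and had its highest control value in control 1. Nearest to Popdc2 were Cnn1 (0.10), Nppb, the B-type natriuretic peptide (0.13), Bves (0.14), the skeletal alpha-actin gene Acta1 (0.15) and Efhd1, a calcium-binding protein (0.18). Bves was thus the third nearest of all genes to Popdc2, and Popdc2 the fourth nearest to Bves. All these distances were measured on the contrast that chose the members. The neighbours were picked on the same 8 arrays, so the pattern that Dmd shares with Bves is part of that choice.

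For Popdc3 the nearest genes were Spink11 (0.03 log2), Phgdh, an enzyme of serine synthesis (0.03), Ube2dnl2, Gm6288 and Gm6498 (0.04 each). Their differences between jasplakinolide and control ran from -0.01 for Phgdh to 0.13 for Gm6498, and none passed in limma (adjusted p 0.491 to 0.994). The distance rewards flat profiles here, so it separates Popdc3 from changing genes more than it marks likeness. Popdc3 was 0.54 log2 from Bves and 0.64 from Popdc2, which placed them at ranks 19925 and 19930 among its neighbours. At the same distances Popdc3 held rank 5709 among the neighbours of Bves and 5715 among those of Popdc2. The ranks thus depend on the gene they start from, and Bves and Popdc2 came with a large difference.

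**Figure D4:**
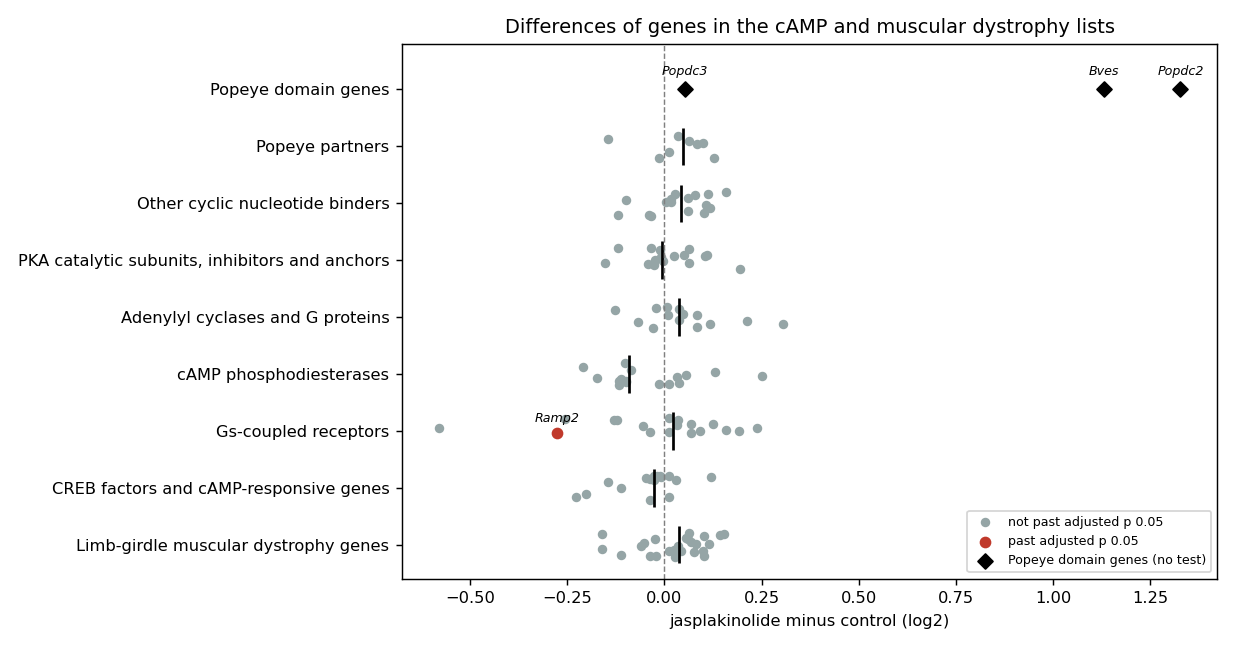
Jasplakinolide minus control difference (log2, horizontal axis) of the 3 Popeye domain genes (diamonds, top row) and of the measured genes of 8 lists; vertical bars are list medians and Ramp2, in red, is the gene past adjusted p 0.05. List genes lie between -0.58 and 0.30. The family was chosen on this difference, so the place of Bves (1.13) and Popdc2 (1.33) above them is part of that choice.

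Bves and Popdc2 were then set beside the genes of the pathway they belong to. Over 7 lists of cAMP signalling, 103 of 114 listed genes were measured, and 1 was called in limma, lower, against 0.772% of all genes called in either direction. Their median difference was 0.01 log2, beside 0.01 over all genes, with 55 members above 0 and 48 below. Among these 103 genes, 13 had an unadjusted p under 0.05. The share of all genes at that threshold was not taken. This count and those of the single lists below are therefore not read as a result. The differences of the list genes ran from -0.58 for Ramp3 to 0.30 for Gnai1. No list gene therefore had a difference as large as that of Bves or Popdc2.

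Of the reported partners of Popeye proteins 8 were measured, and none passed (1 at an unadjusted p under 0.05; median 0.05 log2). The extremes were Arhgef25, a RhoA exchange factor (10.03 ± 0.18 log2 with jasplakinolide and 9.90 ± 0.12 in control; SD, n = 4 each), and Tjp1, the tight junction protein ZO-1 (11.47 ± 0.08 log2 with jasplakinolide and 11.62 ± 0.02 in control). Their differences were 0.13 ± 0.09 and -0.15 ± 0.05 log2 (SE; adjusted p = 0.805 and 0.324). Further partners are named outside the rule for named genes, with their values known. Kcnk2, the potassium channel TREK-1 whose current Popeye proteins raise, differed by 0.01 ± 0.06 log2 (SE). Cav3, muscle caveolin, differed by 0.10 ± 0.06, and Adcy9, the adenylyl cyclase reported in complex with POPDC1, by 0.08 ± 0.06.

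Among receptors that raise cAMP and their accessory proteins, 18 were measured and 1 fell, with 4 at an unadjusted p under 0.05 and a list median of 0.02 log2. This was Ramp2, an accessory protein that turns the calcitonin receptor-like receptor into an adrenomedullin receptor. Ramp2 read 8.30, 8.27, 8.25 and 8.14 log2 in jasplakinolide arrays 1 to 4, and 8.51, 8.57, 8.49 and 8.49 log2 in control arrays 1 to 4. All treated arrays lay below all controls, as they did in 3.29% of all genes. The difference was -0.28 ± 0.05 log2 (SE; adjusted p = 0.0427), and the call was lost whichever single array was left out (adjusted p 0.0751 to 0.145) and after median centring (adjusted p = 0.0956). Its sister Ramp3 differed by -0.58 ± 0.24 and passed in the fit with the replicate number as a block (adjusted p = 0.0151; 0.493 without it), which called 2 genes of this list and 1.08% of all genes lower. Calcrl, the receptor both bind, differed by -0.26 ± 0.12 and did not pass. It is named outside the rule, as is Ramp3.

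Among adenylyl cyclases and G proteins 14 were measured and none passed (2 at an unadjusted p under 0.05; median 0.04 log2). Gnai1, an inhibitory G protein alpha subunit, had the largest difference, 0.30 ± 0.07 log2 (SE; adjusted p = 0.130), and the cyclase Adcy4 differed by 0.21 ± 0.05 (adjusted p = 0.146). In both genes all jasplakinolide arrays lay above all controls, as in 3.62% of all genes. Over the 7 cAMP lists together, 4 of 103 genes had groups apart in this direction. Another 5 had groups apart with jasplakinolide lower, beside 3.29% of all genes. Of 16 phosphodiesterases that degrade cAMP none passed (2 at an unadjusted p under 0.05), and the median was -0.09 log2. Pde4a, a cAMP-specific enzyme, averaged 8.99 ± 0.06 log2 with jasplakinolide and 8.74 ± 0.07 in control (SD, n = 4 each). It differed by 0.25 ± 0.05 (SE; adjusted p = 0.0672) and passed under 5 of the 17 alternatives. Pde2a, which cyclic GMP stimulates, differed by -0.21 ± 0.06 (SE; adjusted p = 0.211).

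Of the other proteins with a cyclic nucleotide-binding domain 16 were measured and none passed (1 at an unadjusted p under 0.05; median 0.04 log2). Prkar1b, a regulatory subunit of protein kinase A, differed by 0.16 ± 0.05 log2 (SE, limma adjusted p = 0.250). All its jasplakinolide arrays lay above all controls, as in 3.62% of all genes. The pacemaker channel gene Hcn2 differed by -0.12 ± 0.06 (adjusted p = 0.586). Named outside the rule, the regulatory subunit Prkar1a differed by 0.01 ± 0.04 and the EPAC gene Rapgef3 by 0.03 ± 0.10. Of 16 catalytic subunits, inhibitors and anchoring proteins of protein kinase A none passed (2 at an unadjusted p under 0.05; median -0.01). The anchoring protein Akap6, known from muscle, differed by 0.19 ± 0.08 (adjusted p = 0.539), and the kinase inhibitor Pkia by -0.15 ± 0.07 (adjusted p = 0.591).

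At the output of the pathway, none of 16 CREB factors and cAMP-responsive genes passed (1 at an unadjusted p under 0.05), with a median of -0.03 log2. The orphan receptor Nr4a2 differed by -0.23 ± 0.13 log2 (SE; adjusted p = 0.710) and the coactivator gene Ppargc1a by -0.20 ± 0.06 (adjusted p = 0.261). Limb-girdle muscular dystrophy genes other than the Popeye members were also read, and none of 26 passed (2 at an unadjusted p under 0.05; median 0.04). Des, which encodes desmin, differed by -0.16 ± 0.16 (adjusted p = 0.887) and the collagen gene Col6a1 by -0.16 ± 0.15 (adjusted p = 0.884).

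Markers of the cell types that the cultures could hold were read on the same arrays. Of 9 markers of contractile smooth muscle, 6 rose, Cnn1, Actg2, Myh11, Lmod1, Tagln and Acta2, by 1.34 to 0.25 log2, where 0.436% of all genes were called higher. With any 1 array left out 5 rose, since Acta2 lost its call each time (limma adjusted p 0.0593 to 0.128). The log2 of their summed linear signal was 15.3 to 15.4 on jasplakinolide arrays and 14.9 on all 4 control arrays after rounding. None of 10 cardiac markers and none of 10 skeletal muscle markers passed (0 of each at an unadjusted p under 0.05), with medians of 0.05 and 0.03 log2. The summed cardiac signal was 10.9 to 11.2 on jasplakinolide arrays and 10.9 to 11.1 on control arrays, and the skeletal one 10.3 to 10.5 on jasplakinolide and 10.3 to 10.6 on control arrays. Array values have no true 0, so no marker can be called absent.

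Endothelial markers were read beside the fall of Ramp2. Of 10 such markers 9 had a lower mean with jasplakinolide, as did 43.6% of all genes, and the list median was -0.11 log2. In 5 of the 10 all jasplakinolide arrays lay below all control arrays, as in 3.29% of all genes, and in 0 all lay above. Called lower was 1 of the 10, Robo4, which fell by 0.41 log2 (limma adjusted p = 0.0170), where 0.336% of all genes were called lower. Robo4 kept its call in 4 of the 8 fits without 1 array (adjusted p 0.0207 to 0.0729). With the replicate block 3 were called lower, Robo4, Kdr (-0.45 log2, adjusted p = 0.0424) and Tek (-0.31, adjusted p = 0.0354), beside 1.08% of all genes. The endothelial list's summed signal was 14.850 to 14.965 log2 on jasplakinolide arrays and 15.002 to 15.048 log2 on control arrays. Mean levels of single endothelial markers over the 8 arrays ran from 7.76 (Cldn5) to 13.4 log2 (Emcn). Those of contractile markers ran from 8.55 (Lmod1) to 13.5 log2 (Acta2). On control arrays the endothelial markers Cdh5 and Pecam1 averaged 13.2 and 12.5 log2, and Vwf 8.08 log2. The highest value of any probe set on any array was 14.2 log2. No level of the endothelial probe sets tells how many endothelial cells the samples held. None of 7 fibroblast (2 at an unadjusted p under 0.05), 8 macrophage (3) and 6 epithelial markers (1) passed, with medians of -0.03, 0.01 and 0.03 log2. With the replicate block the fibroblast marker Dcn (-0.54 log2, adjusted p = 0.0134) and the macrophage marker Cd68 (-0.24, adjusted p = 0.0424) were called lower. The epithelial marker Krt18 (0.30, adjusted p = 0.0302) was called higher with it, as were 0.813% of all genes. Kdr, Tek, Dcn, Cd68 and Krt18 had no call in the fit lacking the block and are named outside the rule. So are the endothelial markers named above by their level. The summed fibroblast signal was 13.1 to 13.4 log2 with jasplakinolide and 13.3 to 13.7 in control. The summed macrophage signal was 11.5 to 11.6 log2 with jasplakinolide and 11.4 to 11.6 in control, and the epithelial one 12.5 to 12.6 with jasplakinolide and 12.2 to 12.4 in control. The part of these markers in the Popeye gene differences and in that of Ramp2 was not tested.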

How the data were processed

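The authors deposited log2 expression levels of 35556 probe sets on 8 arrays. Per the submitters' processing notes, these are RMA values from Affymetrix Expression Console, for which no version is given in the sources used here. The platform annotation gave 1 symbol to 21789 probe sets, several to 1621 and none to 12146. Only those with 1 symbol were used, each gene by its probe set of highest mean over all arrays, which left 19938 genes. No dim probe set was removed. limma 3.58.1 (R 4.3.3) was fitted to all genes, with eBayes, a two-sided test and Benjamini-Hochberg adjustment. On simulated data with 19938 genes, 91% of changes of 0.5 log2 and 99.8% of changes of 1 log2 were recovered, with 5.32% false calls. The simulated noise was independent between genes and arrays, whereas the real arrays deviated together. These shares therefore need not hold for the real data, and a gene without a call is not shown to be unchanged. The number of arrays limits the precision.

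The members and the gene lists were chosen with earlier results of these data known. By the rule for named genes, the text names the members, up to 3 called genes per list (the 2 with the largest differences where none was called) and the 5 genes nearest to each member. Listed genes without a value are not analysed here. Across genes, same-numbered arrays had deviations from their group means that correlated at 0.24 to 0.56 in the 4 pairs, so the numbers were taken to pair the arrays. Pairs of other numbers lay between -0.62 and 0.52, and jasplakinolide 4 correlated more with control 2 (0.52) than with control 4 (0.44). The pairing is therefore an assumption drawn from these correlations, which do not settle it, and the labels do not state it. Tried as alternatives were a block for the replicate number, cyclic loess, median centring of each array, quantile normalization repeated, restriction to the brighter 75% or 50% of genes, a robust prior with intensity trend, averaging a gene's probe sets, and omission of each array. Leaving out jasplakinolide 4 and control 2 together was chosen after seeing the data. Figures were drawn with matplotlib 3.10.9.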

Additional observations from a re-analysis of the deposited data

Results flagged for a closer look

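Bves had 1 array far from the others of its group: control 1 read 8.22 log2, against 7.94 to 7.97 log2 in the other 3 control arrays, and the gap was 0.894 of the group's range. It was the only such array among 60 groups of 4 checked for the 30 genes named by rule, where chance gives about 1 in 20. Without control 1 the difference of Bves was 1.20 log2, against 1.13 with it.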

How the results depend on the processing

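The replicate block, the brightness limits, the intensity trend with robust prior and the averaging of probe sets cannot change a member's difference. The normalizations and the omission of arrays can. Under every alternative run, of either kind, the member differences kept their direction and stayed within 1 within-group SD. They ranged from 1.08 to 1.20 log2 for Bves (17 alternatives), 1.23 to 1.42 for Popdc2 and 0.002 to 0.109 for Popdc3 (16 each, since neither is in the brighter 50% of genes). Among named genes, the replicate block changed only the calls of Ramp3 and of the markers Kdr, Tek, Dcn, Cd68 and Krt18. Over all genes, 162 were called higher and 215 lower with the block. The counts were 155 higher and 141 lower among the brighter 50% of genes, 131 and 145 after a second quantile normalization, 137 and 162 after cyclic loess, and 193 and 165 under a robust prior with intensity trend. Lower calls were 110 among the brighter 75% of genes and 34 after median centring. Leaving out 1 array gave 35 to 67 higher and 8 to 83 lower calls, and leaving out jasplakinolide 4 and control 2 gave 52 higher and 57 lower. Of the Gs-coupled receptor list, and of the 7 cAMP lists together, 2 genes were called lower with the block, and 0 after median centring, without any 1 array and without both arrays. Of the phosphodiesterases, and of the 7 lists, 1 gene (Pde4a) was called higher among the brighter 75% or 50% of genes, after a second quantile normalization and after cyclic loess. With the intensity trend 1 phosphodiesterase and 1 cyclase (Adcy4) were called higher, 2 in all 7 lists. The cause of these shifts was not tested. With 4 arrays a group, fits without an array rest on fewer samples.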
